A study of Saccharomyces cerevisiae with 24 samples.

Results

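The glycogen metabolism genes described here are 9 genes of Saccharomyces cerevisiae, chosen by name for their roles in making, branching and breaking down glycogen and in handling glucose phosphate. These genes and the gene lists below were chosen with earlier results of these data known, so their counts beside all probes are descriptive only. The 9 genes are GLG1 (YKR058W), GLG2 (YJL137C), GSY1 (YFR015C), GSY2 (YLR258W), GLC3 (YEL011W), GPH1 (YPR160W), GDB1 (YPR184W), GAC1 (YOR178C) and PGM2 (YMR105C). They are 9 of the 5493 genes named on the arrays. Each has 1 of the 6350 probes, and 7 of the 9 were among the 5487 probes that could be tested. GLG1 and GLG2 lacked a value on too many arrays to be tested and are given by their values.

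The series followed strains with altered pre-mRNA splicing factors through a temperature shift. The strains were prp17 null, prp17-1 and prp22-1, and SS330, against which the mutants are set here. PRP17 and PRP22 encode factors that act late in splicing. From each strain, RNA was taken before the shift, at 23C (0 min), and then at 37C for 5, 15, 30, 60 and 120 min. Each of the 24 samples of strain and time was put on 1 array. Every strain, SS330 included, was moved to 37C, and the Cy3 channel of every array carried yeast genomic DNA while Cy5 carried total RNA of the strain. The labels give no genotype beyond these names, no second culture and no course held at 23C. Strain and culture cannot be told apart, nor can temperature and time in culture. The p-values measure the spread left once each strain's level and a time course shared by the 4 strains are taken out.

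Glycogen is the branched glucose store of yeast. Glycogenin starts the chain, glycogen synthase lengthens it, the branching enzyme adds branch points, and phosphorylase with the debranching enzyme releases the glucose again. Protein phosphatase 1 activates glycogen synthase by removing phosphate, and the genes of this pathway are known in yeast for responding to heat and to starvation together with those of trehalose, the other glucose store.

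Each value below is a deposited log ratio, taken as log2, after the median of its array was set to 0. It has no known baseline for a given probe, so values are compared between arrays and never between genes, and a difference of 1 between arrays is a doubling. A value was present for 77.3% to 98.4% of the probes of an array. It was present for 79.7% to 91.6% on the prp17 null arrays at 37C, against 92.7% to 98.0% on the SS330 arrays at 37C. The spread over probes was also wider in prp17 null at 37C, with an SD of 0.816 to 1.05 against 0.418 to 0.783 in SS330. CDC40, the gene that prp17 mutations affect, was lower in prp17 null than in SS330 at 37C by a log2 difference of -1.59 ± 0.16 (SE, limma, adjusted p = 1.2e-05). The direction of the ratios, RNA over DNA, was read from this gene and from heat shock genes being high at 37C. CDC40 is therefore no independent check of the labels, and the sign of every difference below rests on that reading.

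In the first minutes at 37C, the genes for both making and breaking down glycogen were higher than at 23C. Over all strains and times at 37C, PGM2, GPH1, GDB1, GSY2 and GLC3 rose, by mean log2 differences of 0.68 to 2.20. GSY1 rose at 5 min, and GAC1 did not pass the test. RNA came from whole cultures, so a change in every cell and a change in a share of the cells cannot be told apart. Of the 7 tested genes, 6 passed at 5 min, when 10.0% of all probes were called higher, 5 at 15 min (12.3%), 4 at 30 min (7.96%) and none at 60 or 120 min. At 60 min GPH1 and PGM2 were 1.26 and 1.01 above 0 min in the fit over the 4 strains, but the strains differed. They were 3.44 and 1.99 above it in prp17 null and 1.47 and 1.60 above it in prp17-1. Their changes from 0 min were -0.10 and 0.70 in prp22-1, and 0.24 and -0.24 in SS330. These counts come from limma with the strain as a block and Benjamini-Hochberg adjustment over the 5487 probes, at an adjusted p below 0.05.

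PGM2, the main phosphoglucomutase, which interconverts glucose 6-phosphate and glucose 1-phosphate, had the largest mean difference between 37C and 23C of the 7. GPH1 was further from 0 min at 30 and 60 min, and in prp17 null over all times. The values of PGM2 in order of time were -0.33, 3.44, 3.25, 3.49, 1.66 and 0.25 in prp17 null, and -0.12, 2.65, 2.99, 2.60, 1.49 and 1.05 in prp17-1. In prp22-1, which had no value for 15 min, they were -0.32, 3.71, 2.08, 0.39 and 1.47. In SS330 they were 0.15, 3.24, 3.49, 0.56, -0.09 and -0.11. All 4 strains were high at 5 min and they parted at 30 min, when SS330 had dropped most of the way and the 3 mutants had not. The mean at 37C was above 23C by a log2 difference of 2.20 ± 0.35 (SE, 23 arrays, adjusted p = 0.000243), and the difference at 5 min was 3.41 ± 0.45 (adjusted p = 2.71e-05). At 5 min the change of PGM2 stood at the 99.85th percentile of the changes of all tested probes.

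GLG1 and GLG2 encode the 2 glycogenins. GLG1 had 20 values, between -0.79 and 0.49, and was missing in prp17 null at 5, 30 and 120 min and in SS330 at 5 min. After 5 min at 37C its values were 0.46 in prp17-1 and 0.49 in prp22-1, against -0.57 and -0.10 in the same strains at 0 min. GLG2 had 19 values, the highest at 1.76 and the others between -0.67 and 0.34. The highest is from the prp22-1 array at 15 min, which had the lowest share of probes with a value of all 24, 77.3%. The filter was also lowered to a value on 12 arrays, with no minimum per strain. The mean difference between 37C and 23C was then 0.23 ± 0.17 for GLG1 (SE, adjusted p = 0.356) and 0.43 ± 0.25 for GLG2 (SE, adjusted p = 0.237). At 5 min, under that filter, GLG1 was higher by 0.82 ± 0.27 (SE, adjusted p = 0.0403).

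GSY2 encodes the main glycogen synthase and GSY1 the minor one. GSY2 had values of 0.60, 1.68, 2.17, 2.45, 1.98 and 0.88 in prp17 null, and -0.01, 1.63, 2.16, 1.72, 0.38 and 0.56 in prp17-1. In prp22-1, again without 15 min, it had -0.07, 1.98, 0.76, 0.16 and 0.92, and in SS330 it had 0.14, 1.89, 2.17, 0.83, 0.38 and 0.53. All 4 strains lay within 0.35 of each other at 5 min, and prp17 null stayed up through 60 min. The mean rise of GSY2 was 1.19 ± 0.22 (SE, 23 arrays, adjusted p = 0.000798).

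GSY1 moved less and for a shorter time. Its values were -0.15, 1.25, 0.23, -0.21, -0.70 and -0.88 in prp17 null, and -0.05, 0.61, 0.75, 0.23, -0.28 and -0.28 in prp17-1. They were -0.26, -0.04, -0.43, -0.57, -0.52 and -0.14 in prp22-1, and -0.39, 0.49, 0.11, -0.43, -0.46 and -0.17 in SS330. At 5 min all 4 strains were above their own 0 min array, and at 60 min all 4 were below it, SS330 by only -0.08. At 120 min prp17 null (-0.73) and prp17-1 (-0.23) were below it, and prp22-1 (0.12) and SS330 (0.21) above. The rise at 5 min was 0.79 ± 0.22 (SE, adjusted p = 0.0126), and without the prp17 null array at 5 min it was 0.53 (adjusted p = 0.0576). The mean over all times at 37C differed from 23C by 0.14 ± 0.17 (SE, adjusted p = 0.574).

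GLC3, the branching enzyme, was high at 5 and 15 min and came down by 30 min in prp22-1 and SS330. Its values were 0.36, 2.18, 1.48, 1.41, 1.15 and 0.29 in prp17 null, and 0.57, 1.86, 1.58, 1.51, 0.63 and 0.49 in prp17-1. They were 0.19, 2.03, 1.46, -0.05, -0.04 and 0.27 in prp22-1, and 0.32, 2.0, 2.21, 0.10, 0.27 and -0.09 in SS330. By 120 min all 4 strains were within 0.58 of each other, against a spread of 1.56 at 30 min. The mean rise was 0.68 ± 0.20 (SE, 24 arrays, adjusted p = 0.0157). After quantile normalization it was 0.24 (adjusted p = 0.279), and without the prp17 null array at 0 min it was 0.59 (adjusted p = 0.0939), so this mean rise did not hold under either.

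GPH1, glycogen phosphorylase, which cuts glucose 1-phosphate from the chain ends, had the largest mean rise after PGM2. Its values in order of time were -0.25, 4.23, 2.22, 4.04, 3.19 and 0.72 in prp17 null, and -0.20, 0.32, 2.28, 2.0, 1.27 and 0.59 in prp17-1. They were -0.03, 2.23, 2.40, 1.37, -0.13 and 0.30 in prp22-1, and -0.18, 1.82, 1.72, 1.43, 0.07 and 0.14 in SS330. The strains started within 0.21 of each other at 23C and were widest apart at 5 min, where prp17 null was highest and prp17-1 lowest. The mean at 37C was above 23C by 1.77 ± 0.41 (SE, 24 arrays, adjusted p = 0.00329).

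GDB1, the debranching enzyme, which lets breakdown pass a branch point, had its highest value at 15 or 30 min in each strain. Its values were 1.14, 1.93, 2.38, 2.88, 2.20 and 1.33 in prp17 null, and 0.32, 1.29, 1.85, 1.98, 1.12 and 0.60 in prp17-1. They were -0.09, 2.17, 2.63, 1.81, -0.05 and 0.90 in prp22-1, and -0.08, 2.14, 2.28, 1.76, 0.22 and 0.23 in SS330. The prp17 null array at 23C was already above every other strain's. The mean rise was 1.26 ± 0.24 (SE, 24 arrays, adjusted p = 0.000723).

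GAC1 encodes a regulatory subunit that brings protein phosphatase 1 to glycogen synthase. Its course differed from those of most of the enzymes in prp17 null, prp22-1 and SS330. In prp17-1 GAC1 was, like GLC3, highest at 5 min and lower after it. In prp17 null, which had no value for 5 min, its values were -1.42, -0.75, -0.16, -0.01 and 0.41. In prp17-1 they were -0.37, 1.21, 0.60, 0.23, -0.29 and -0.29. They stayed between 0.28 and 0.61 in prp22-1 and between 0.06 and 0.53 in SS330. The lowest value by far was that of prp17 null at 23C, and its later values were each above the one before. The mean at 37C was above 23C by 0.55 ± 0.22 (SE, 23 arrays, adjusted p = 0.0685), which did not pass the test. It was 0.30 without the prp17 null array at 0 min. It passed without SS330 at 0 or 5 min, prp17 null at 15 min or prp17-1 at 120 min, at 0.60 to 0.72 with adjusted p-values of 0.0371 to 0.0444, and with trended, robust moderation of the variances (adjusted p = 0.0497).

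**Figure D1:**
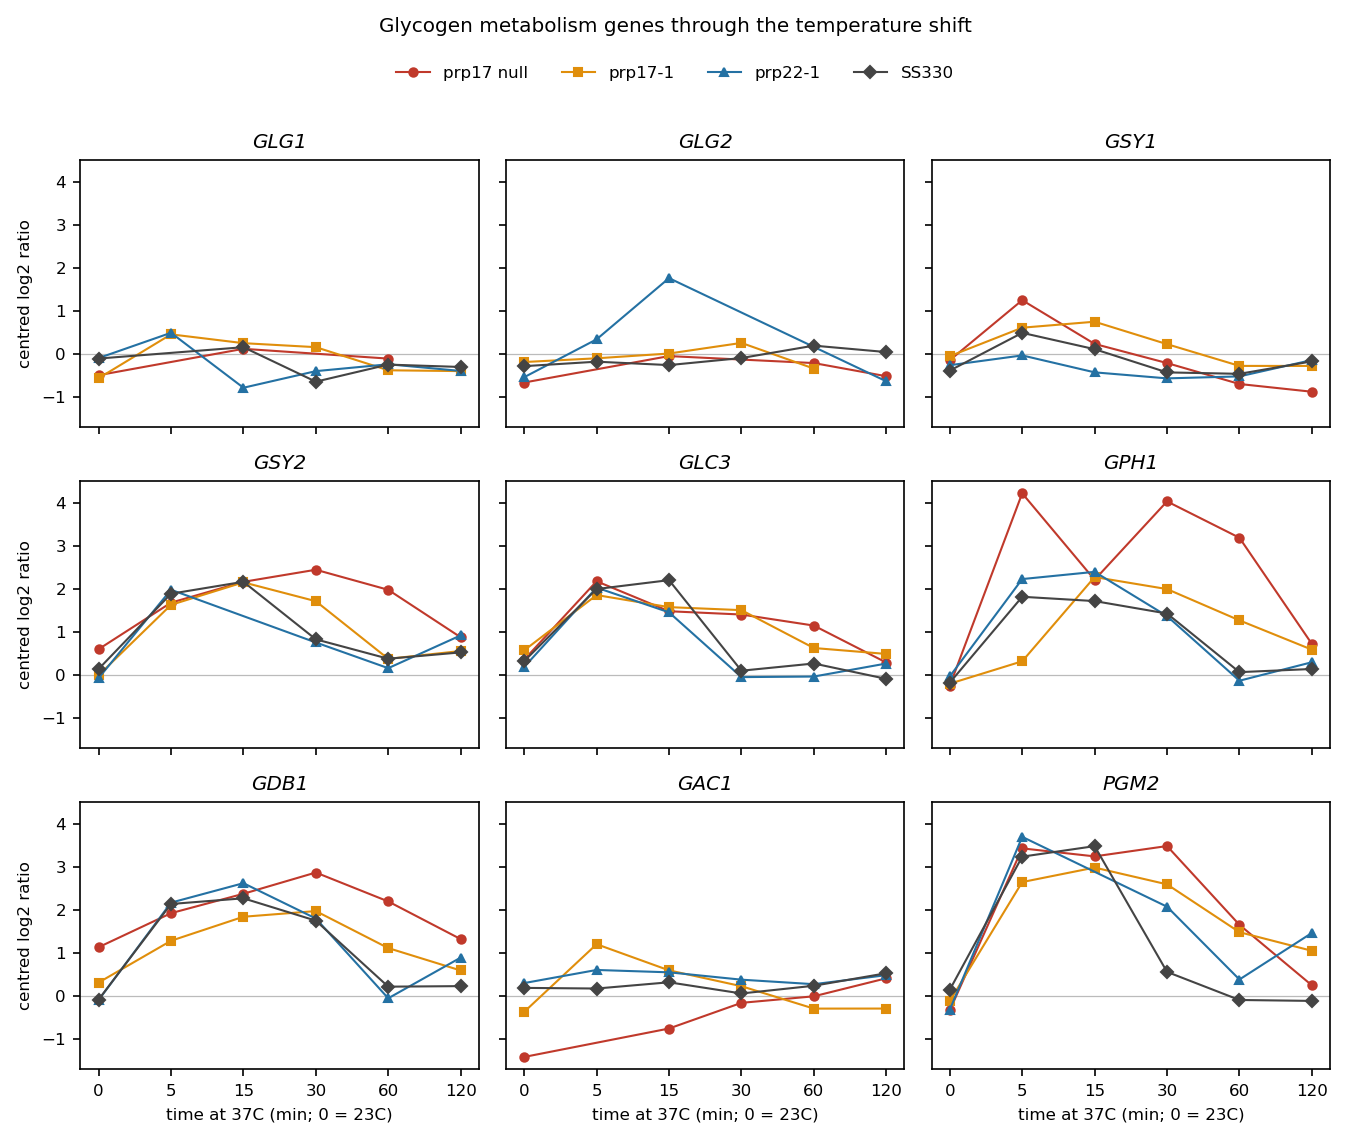
Centred log2 ratio (vertical axis) of each of the 9 genes against minutes at 37C (horizontal axis, with 0 min at 23C), 1 line per strain and 1 point per array; lines run across arrays with no value. PGM2, GDB1, GSY2 and GLC3 are high at 5 and 15 min in each strain with a value, as is GPH1 except in prp17-1 at 5 min (0.32). The prp17 null line of GPH1 is still at 4.04 at 30 min and 3.19 at 60 min, against 1.43 and 0.07 in SS330.

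Over all times, 5 of the 7 tested genes were called higher at 37C and none lower, where 13.8% of all tested probes were called higher. Their median log2 difference was 1.19, against 0.00 over all tested probes. At 5 min 6 of 7 were higher, against 10.0% of all probes, and the 7 differences ran between 0.79 for GSY1 and 3.41 for PGM2. At 15 min 5 of 7 were higher, against 12.3% of all probes, with GSY1 (0.38) and GAC1 (0.50) not called. At 30 min GPH1 (2.37), PGM2 (2.34), GDB1 (1.78) and GSY2 (1.27) were higher, which is 4 of 7 against 7.96% of all probes.

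At 60 min limma called none of the 7 genes in either direction, where 6.38% of all probes were called, and 2 of them, GPH1 (1.26) and PGM2 (1.01), had an unadjusted p below 0.05. At 120 min it also called none of the 7, where 18.1% of all probes were called, and GAC1 (0.61) alone had an unadjusted p below 0.05. The members' differences at 120 min lay between -0.16 for GSY1 and 0.82 for PGM2.

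**Figure D2:**
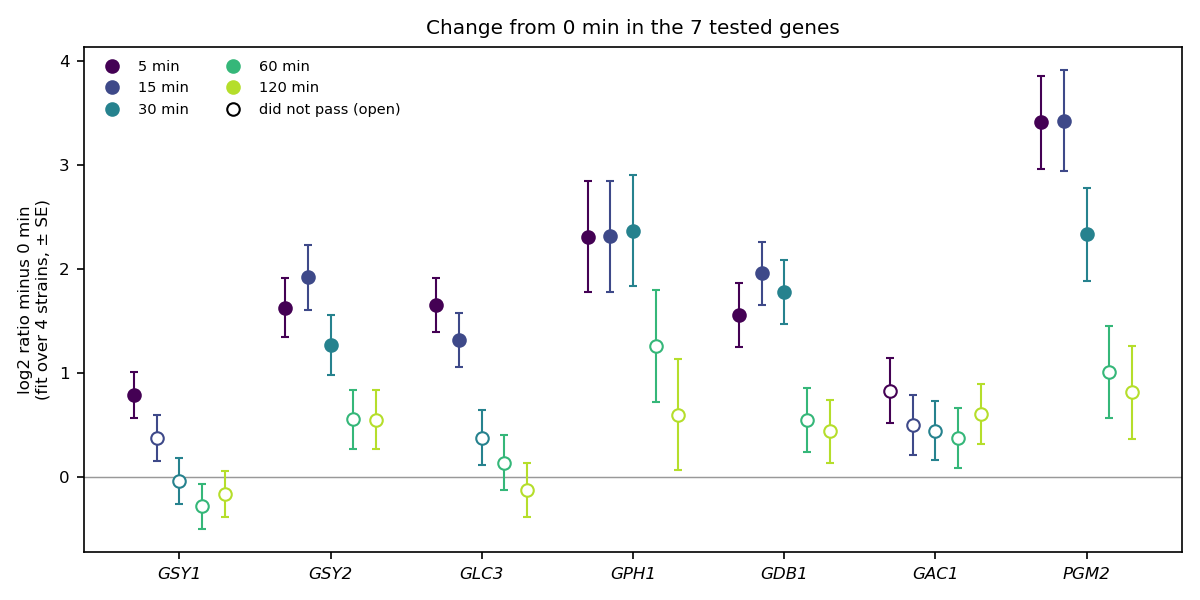
Log2 difference from 0 min (vertical axis) for the 7 tested genes (horizontal axis), with 1 colour for each time at 37C and bars for the SE of the fit over the 4 strains; open points did not pass the test. At 5 min 6 points are filled, at 30 min 4, and at 60 and 120 min none.

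Between 15 and 30 min the courses of SS330 and prp17 null parted. In SS330, 8 of the 9 genes were lower at 30 min than at 15 min, by a median log2 step of -0.54, with steps of -2.93 for PGM2 and -2.11 for GLC3. In prp17 null 2 of the 7 genes with both values were lower and the median step was 0.28, in prp17-1 7 of 9 with a median of -0.28, and in prp22-1 5 of 6 with a median of -0.50. The medians cover different genes. That of prp22-1 lacks PGM2, GSY2 and GLG2, and that of prp17 null lacks GLG1 and GLG2. Over all probes the median step lay between 0.00 in prp22-1 and 0.04 in prp17 null. These steps rest on 1 array at each end and were not tested.

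The comparison of each mutant with SS330 asks whether loss or alteration of the splicing factor goes with other levels of these genes at 37C. The 5 arrays of each strain at 37C were compared with the time as a block. In prp17 null the phosphorylase gene GPH1 and the debranching enzyme gene GDB1 were higher than in SS330, and the other 5 tested genes did not pass. These 2 calls of 7 compare with 14.6% of all tested probes called higher in prp17 null, and 34.0% called in either direction. In prp17-1 and prp22-1 none of the 7 passed.

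GPH1 was above SS330 in prp17 null at 5 of 5 times at 37C, by 2.41, 0.50, 2.61, 3.13 and 0.58 in order of time. The ranges still overlapped, with 0.72 to 4.23 in prp17 null and 0.07 to 1.82 in SS330. The mean log2 difference was 1.84 ± 0.47 (SE, 5 arrays each, limma, adjusted p = 0.00758), at the 99.54th percentile of all tested probes. At 23C the prp17 null array differed from SS330 by -0.07. The difference was 1.07 after quantile normalization (adjusted p = 0.0398), and over 5, 15 and 30 min alone it was 1.84 and did not pass (adjusted p = 0.0727).

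GDB1 was above SS330 in prp17 null at 4 of 5 times at 37C, by -0.21, 0.11, 1.12, 1.98 and 1.09 in order of time. It was also 1.22 above SS330 at 23C, before the shift. The mean difference at 37C was 0.82 ± 0.29 (SE, 5 arrays each, adjusted p = 0.0389). The call was lost after quantile normalization (0.28, adjusted p = 0.431), without the time block (adjusted p = 0.218), and without any 1 of the arrays at 30, 60 and 120 min of either strain, with adjusted p-values of 0.0699 to 0.135.

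The median log2 difference over the 7 genes was 0.67, against -0.04 over all tested probes, and after quantile normalization it was 0.22, against -0.02. PGM2 (1.00 ± 0.40, adjusted p = 0.0677) and GSY2 (0.67 ± 0.28, adjusted p = 0.0728) lay just outside the threshold. GLC3 (0.41), GSY1 (0.03) and GAC1 (-0.31) had adjusted p-values of 0.225 to 0.923. Without 1 array of prp17 null or SS330 at 37C the count ran between 1 and 3 of 7. It was 1 without SS330 at 30, 60 or 120 min or prp17 null at 30 or 60 min, when GDB1 dropped out, and it was 3 without SS330 at 5 or 15 min, when PGM2 joined, and without prp17 null at 5 or 15 min, when GSY2 joined. The lower share of probes with a value and the wider spread on the prp17 null arrays move with this comparison, and their part in it was not tested.

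The difference was not even over time. At 5 and 15 min 4 of 6 and 4 of 9 of the genes with values lay above SS330 in prp17 null, with median differences of 0.19 and -0.0015. At 30 min 6 of 7 lay above it with a median of 1.31, and at 60 min 6 of 9 with a median of 0.88. Of all probes, 49.0%, 45.9%, 47.6% and 48.4% lay above SS330 at 5, 15, 30 and 60 min. The differences at 30 min were 2.93 for PGM2, 2.61 for GPH1, 1.62 for GSY2, 1.31 for GLC3 and 1.12 for GDB1. At 60 min they were 1.75 for PGM2, 3.13 for GPH1, 1.60 for GSY2, 0.88 for GLC3 and 1.98 for GDB1. By 120 min they were 1.09 for GDB1 and at most 0.58 for the rest. Tested as a change of the difference between 5 to 30 min and 60 to 120 min, limma called none of the 7 genes, where 4.47% of all probes were called. GSY1 (-0.84, adjusted p = 0.133) and GDB1 (1.20, adjusted p = 0.172) had an unadjusted p below 0.05. The same test called none of the 7 in prp17-1, where 0% of all probes were called and GAC1 (-1.17, adjusted p = 0.353) alone had an unadjusted p below 0.05. It called none in prp22-1, where 0.0182% of all probes were called and no member had an unadjusted p below 0.05.

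**Figure D3:**
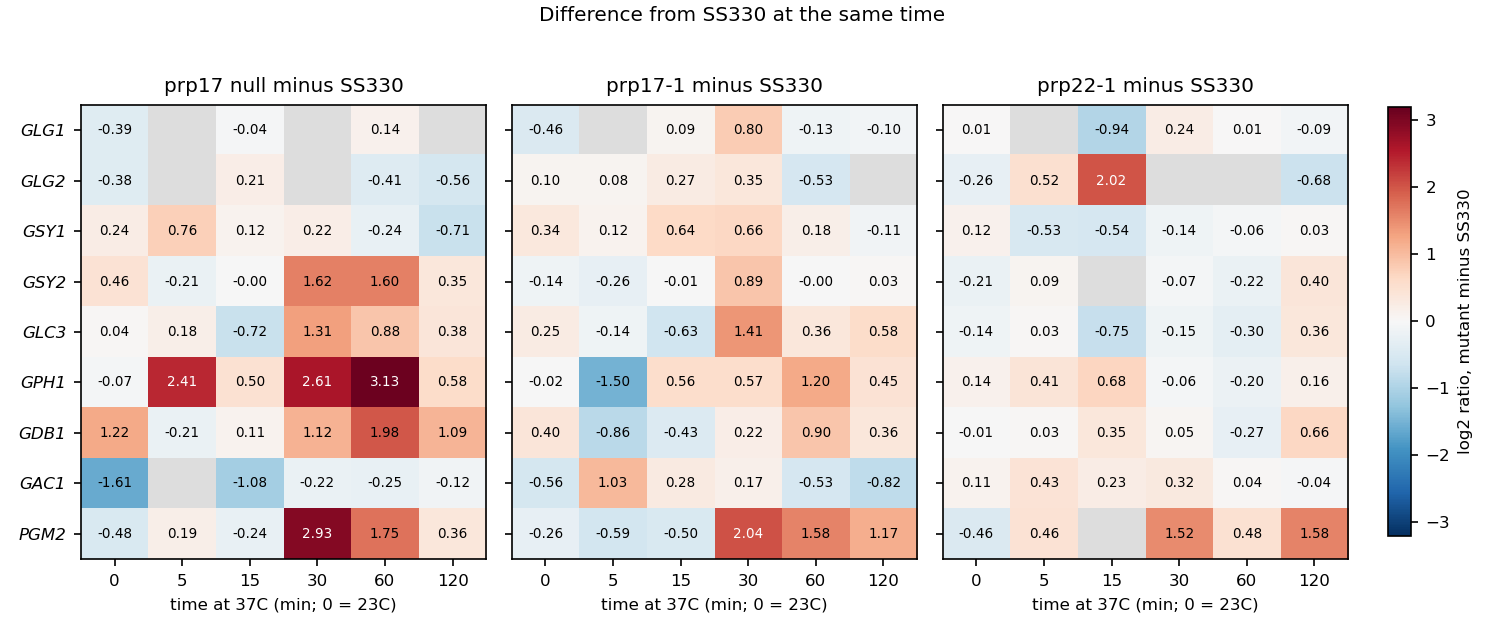
Centred log2 ratio of prp17 null, prp17-1 and prp22-1 (1 panel each) minus that of SS330 at the same time, for the 9 genes (rows) at 0 to 120 min (columns); the colour and the printed number give the difference, and grey marks a missing value. In prp17 null, PGM2 and GPH1 reach 2.93 and 2.61 at 30 min, and in prp17-1 all 9 genes are above SS330 at 30 min.

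In prp17-1 limma called none of the 7 genes against SS330, and none had an unadjusted p below 0.05, where 3.17% of all probes were called. The 7 differences lay between 0.02 for GAC1 and 0.74 ± 0.40 for PGM2 (SE, adjusted p = 0.353), with a median of 0.26 against -0.03 over all probes. After quantile normalization the median was 0.28, against -0.01 over all probes. Without the SS330 array at 30 min the difference of PGM2 was 0.41. At 30 min, all 9 genes were above SS330, by 0.17 for GAC1 to 2.04 for PGM2, with a median of 0.66, when 44.3% of all probes were above it. At 5 min 3 of 8 were above SS330, with a median of -0.20, and at 15 and 60 min 5 of 9 were. Of all probes, 48.1%, 40.1% and 49.4% were above SS330 at 5, 15 and 60 min. PGM2 in prp17-1 differed from SS330 by -0.59, -0.50, 2.04, 1.58 and 1.17 in order of time at 37C. GPH1 in prp17-1 differed from SS330 by -1.50 at 5 min and was above it at each later time.

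In prp22-1 limma also called none of the 7 genes against SS330, and none had an unadjusted p below 0.05, where 3.48% of all probes were called. The differences lay between -0.25 for GSY1 and 0.80 ± 0.44 for PGM2 (SE, adjusted p = 0.359), with a median of 0.17 against -0.02 over all probes, and of 0.06 after quantile normalization. The difference of PGM2 was 0.44 without the SS330 array at 30 min and 0.52 without the prp22-1 array at 120 min. PGM2 in prp22-1 differed from SS330 by 1.52, 0.48 and 1.58 in the last 3 samples. GLC3 in prp22-1 was close to SS330 at 30 min, with a difference of -0.15, while prp17 null and prp17-1 were 1.31 and 1.41 above it.

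Whether the change from 23C to 37C itself differed between a mutant and SS330 was tested as an interaction. Limma called none of the 7 genes for prp17 null, prp17-1 or prp22-1, and it called 0% of all tested probes in each. That share depended on the scaling. After quantile normalization 109 probes were called higher and 117 lower for prp17 null, 44 and 54 for prp17-1, and 68 and 107 for prp22-1. At an unadjusted p below 0.05 there was 1 gene in prp17 null, GAC1 (1.30, adjusted p = 0.646), and none in prp17-1 or prp22-1. Each of these contrasts rests on a single array at 23C in either strain.

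The mutants were also set against each other at 37C. GPH1 was higher in prp17 null than in prp17-1 by 1.59 ± 0.47 (SE, adjusted p = 0.0365), and higher than in prp22-1 by 1.65 ± 0.47 (SE, adjusted p = 0.0176). It was the call among 7 in each, where 6.82% and 11.9% of all probes were called higher. Neither call held after quantile normalization (0.79, adjusted p = 0.247, and 0.99, adjusted p = 0.0713). The first was lost without prp17 null at 5, 30 or 60 min or prp17-1 at 5, 30 or 120 min, and the second without prp17 null at 5, 30 or 60 min or prp22-1 at 30 or 60 min, with adjusted p-values up to 0.108. The median difference of the 7 genes between prp17 null and prp17-1 was 0.26, and -0.18 after quantile normalization. Between prp17 null and prp22-1 it was 0.57, and 0.32 after quantile normalization. Between prp22-1 and prp17-1, limma called none of the 7, where 7.34% of all probes were called, and GSY1 (-0.55, adjusted p = 0.135) had an unadjusted p below 0.05.

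Paralogues of the pathway moved unequally. PGM2 and PGM1 encode 2 phosphoglucomutases. Over all strains PGM2 rose by 2.20 while PGM1 fell by 0.48 on the log2 scale ± 0.18 (SE, 22 arrays, adjusted p = 0.047). At 30 min PGM1 fell by 0.79 (adjusted p = 0.033), when PGM2 was 2.34 higher. The call of PGM1 over all times was lost on values without centring (adjusted p = 0.0551) and after quantile normalization (adjusted p = 0.137). The PGM1 value at 30 min minus that at 0 min was -1.24 in prp17 null and -0.48 in SS330. Of the synthases GSY2 rose more than GSY1 at 5 min, by 1.63 against 0.79, and it alone of the pair was called at 15 and 30 min. These contrasts between genes were not tested as differences.

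**Figure D4:**
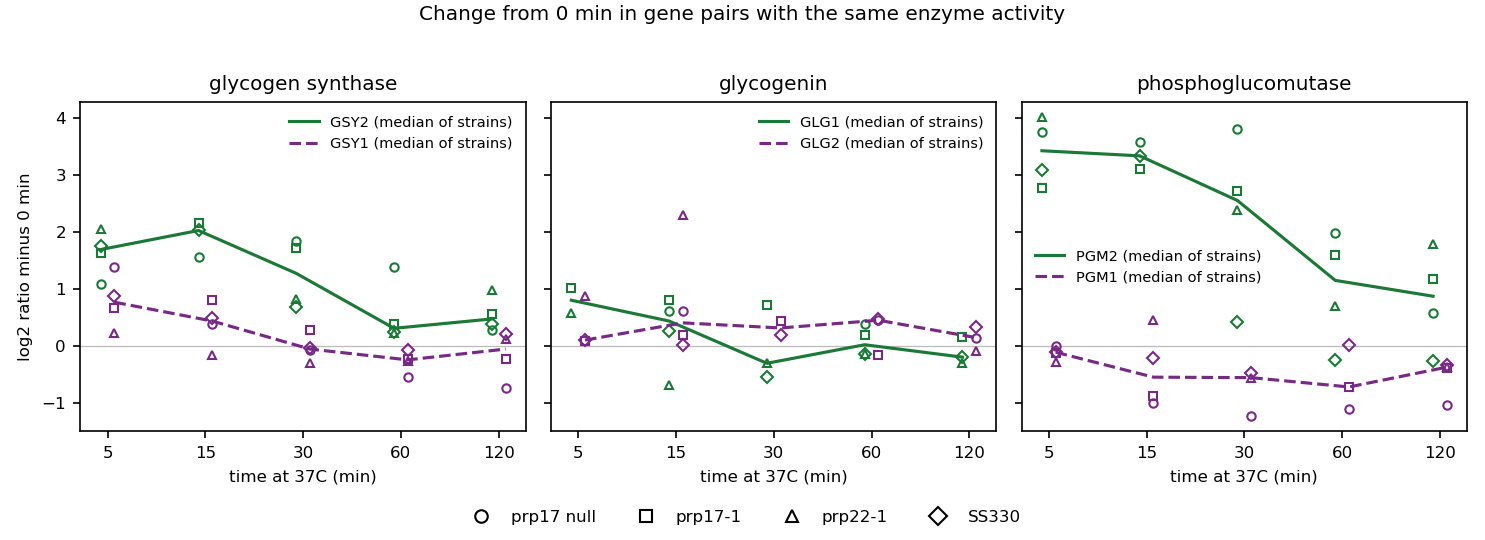
Log2 change from the same strain's 0 min array (vertical axis) at 5 to 120 min (horizontal axis) for the pairs GSY2 and GSY1, GLG1 and GLG2, and PGM2 and PGM1; symbols are strains and lines join the medians over strains. PGM2 lies far above PGM1 at 5, 15 and 30 min, where the fitted changes of PGM2 are 3.41, 3.43 and 2.34.

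Other genes that feed or control the pathway were taken from lists by role. Over all times at 37C, 13.8% of all tested probes were called higher, and 925 of 5487 were called lower. Of 5 genes for glucose phosphorylation and UDP-glucose supply, 3 rose at 37C over all times: the glucokinase GLK1 (1.90), the hexokinase HXK1 (1.84) and UGP1 (1.59), which makes UDP-glucose for glycogen synthase. PGM1 fell and the hexokinase HXK2 did not pass (0.05, adjusted p = 0.836). Their median was 1.59. After quantile normalization all 3 were still called, at 0.77 for GLK1, 1.61 for HXK1 and 1.13 for UGP1. UGP1 followed the course of the members, at 2.63 above 0 min after 5 min, 2.74 after 15 min and 1.78 after 30 min, and 0.25 at the last time, which was not called.

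Of 7 genes for protein phosphatase 1 and its subunits, GIP2 (1.17) and REG1 (0.55) rose and 5 did not pass, with a median of 0.09. Over the same comparison, 13.8% of all tested probes were called higher. GIP2 is thought to be a glycogen-linked subunit like GAC1. Of 11 tested genes among 12 for kinases that act on glycogen synthase or its control, PHO85 and MCK1 fell, by 0.43 and 0.42 on the log2 scale, and 9 did not pass, with a median of 0.07. Of 3 tested genes among 4 for protein kinase A, the catalytic subunit gene TPK2 rose (0.36), with a median of 0.36. SGA1, a glucoamylase that frees glucose from glycogen, did not pass over all times (0.30, adjusted p = 0.133) but rose at 5 min (0.58, adjusted p = 0.0265). Of 4 stress transcription factor genes, MSN2 (0.50) and HSF1 (0.46) rose, with a median of 0.37. After quantile normalization REG1 was at -0.19 and TPK2 at 0.23, neither called, and without centring PHO85 was at -0.40 and not called. Quantile normalization also brought calls higher for PCL8 (0.59) and PCL10 (0.34) of the kinase list, where PHO85 (-0.59) and MCK1 (-0.48) were still called lower.

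Genes of trehalose, the other glucose store, were also higher at 37C. Where 13.8% of all tested probes were called higher, 6 of 7 genes for trehalose synthesis and breakdown rose at 37C, with a median of 1.11. Among them were the trehalase gene NTH1 (1.96), the synthase gene TPS1 (1.75), the acid trehalase gene ATH1 (1.12) and the phosphatase gene TPS2 (1.11), and TSL1 did not pass (-0.13). The 6 were still called after quantile normalization, with NTH1 at 0.83, TPS1 at 1.0, ATH1 at 0.99 and TPS2 at 0.75. In prp17 null against SS330 at 37C, where 14.6% of all tested probes were called higher, 3 of the 7 were higher. They were NTH1 (1.22), ATH1 (0.95) and TPS3 (0.72). None of the 3 passed after quantile normalization, at 0.04, 0.45 and 0.35.

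In the other lists prp17 null had the hexokinase gene HXK2 (-0.78) and the phosphatase subunit gene REG2 (-0.69) lower than SS330. It had REG1 (0.83), the PAS kinase gene PSK1 (0.94) and TPK2 (0.59) higher. Of all tested probes, 14.6% were called higher in that comparison and 1062 of 5487 lower. After quantile normalization TPK2 was still called, while HXK2 (-0.19), REG2 (-0.44), REG1 (0.19) and PSK1 (0.56) were not, and GLK1 (-0.94) and PGM1 (0.74) were. In prp22-1 PIG2 (0.64) was higher than in SS330 and PHO85 (-0.69) lower, where 3.48% of all probes were called. In prp17-1 limma called no gene of the lists against SS330, where 3.17% of all probes were called. There, 1 gene each of the phosphatase, kinase and trehalose lists had an unadjusted p below 0.05. SGA1 and the 4 stress transcription factor genes did not pass in any of the 3 mutants against SS330, where 1 factor gene in prp17 null and 1 in prp22-1 had an unadjusted p below 0.05.

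How closely the members moved together was described by Pearson's r over the arrays, which share strains and times. Against the mean of the other tested members, r was 0.92 for PGM2, 0.90 for GSY2, 0.86 for GLC3, 0.81 for GPH1 and 0.80 for GDB1, over 23 or 24 arrays. It was 0.60 for GLG1 and 0.56 for GSY1, and lower for GLG2 (0.37, 19 arrays) and GAC1 (0.14, 23 arrays). GSY2 and GDB1, a gene for building the chain and one for taking it apart, had the highest r of any pair, 0.91 over 23 arrays. The other pairs of a glycogenin, synthase or branching enzyme gene with GPH1 or GDB1 had a lower r. It lay between 0.23 for GLG1 and GDB1 and 0.81 for GSY2 and GPH1.

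The named genes most like the mean course of the 7 tested members, among 4953 named probes compared, were SPI1, FMP16, TPS3, GOR1, SSC1, ALD4, CTT1 and RSF1. Their r lay between 0.938 and 0.948 over 21 to 24 arrays, against a median of -0.05 over all those compared. TPS3 encodes a subunit of the trehalose synthase complex, CTT1 the cytosolic catalase, SSC1 a mitochondrial Hsp70 chaperone and ALD4 a mitochondrial aldehyde dehydrogenase.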

How the data were processed

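RNA of 4 yeast strains at 6 times each was measured against genomic DNA on 24 two-colour arrays. The log2 ratios were used as deposited by the authors. Base 2 is an assumption, since the labels name no base. How the authors corrected background and normalized, and the array's genome build, is not given in the sources used here. Deposited values hold no signal over background, so the precision of values near background cannot be stated. Probes were named from the platform annotation, with systematic names from the RefSeq gene table.

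Each array was centred on its median. Testing a probe needed values on 20 or more of the 24 arrays, with 3 or more of the 5 at 37C in every strain. Linear models were fitted probe by probe by least squares, dropping arrays with no value, and moderated with limma 3.58.1 in R 4.3.3 (18 comparisons), and p-values were adjusted by Benjamini-Hochberg over all tested probes. Times at 37C stand in for replicates of a strain. The fit was tested on simulated data. Alternatives covered scaling, filter, blocks, times, strains and single arrays.

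The members and the 7 gene lists were chosen with earlier results of these data known. The text names the 9 members, the genes targeted by the mutations, up to 4 called genes of a list, and the 8 named genes most like the members' mean. PRP22 was 0.08 ± 0.17 (SE, adjusted p = 0.845) apart between prp22-1 and SS330.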

Additional observations from a re-analysis of the deposited data

Results flagged for a closer look

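A pair of results on GPH1, the glycogen phosphorylase gene, drew attention because its level at 37C differed between mutants. It was higher in prp17 null than in prp17-1 by a log2 difference of 1.59 (limma, adjusted p = 0.0365), and higher in prp17 null than in prp22-1 by 1.65 (adjusted p = 0.0176). The values of the 3 mutants at 37C overlapped, with 0.72 to 4.23 in prp17 null, 0.32 to 2.28 in prp17-1 and -0.13 to 2.40 in prp22-1.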

How the results depend on the processing

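Over the 7 tested genes and 18 comparisons, 3950 values were recomputed under the alternatives, and 3879 kept their direction and their side of the threshold or were uncalled throughout; 39 lost their call, 31 gained one and 1 called value changed sign, while 143 uncalled values changed sign. That 1 was GDB1 in prp17 null against SS330, at -0.054 with 5 and 15 min alone, a choice made after seeing the data. Quantile normalization moved the count of called genes to 1 at 60 min, 1 for prp17 null against SS330, 0 for prp17 null against prp17-1 and against prp22-1, 1 for prp22-1 against prp17-1 and 1 for the late minus early difference of prp17-1. Of all probes it called 534 higher and 683 lower for prp17 null against SS330, where centred values gave 801 and 1062. For prp17 null against prp17-1 it called 79 and 68 (374 and 335 centred), and against prp22-1 388 and 454 (653 and 821). For late minus early in prp17-1 it called 57 and 42 (0 and 0 centred). The counts at 60 min and for prp22-1 against prp17-1 are given below. Requiring a value on all 24 arrays, which left 4 of the 9 genes, gave 3 calls over all times, 3 at 15 min and 2 at 30 min. For prp17 null against SS330, where 2 genes were called, the count was 1 without the time block, 1 with those strains' arrays alone, 0 with 5, 15 and 30 min alone, 0 with 5 and 15 min alone, 5 with 30 and 60 min alone (11.1% of all probes were then higher) and 1 without the 2 arrays of lowest coverage; the last 3 were chosen after seeing the data, the 30 and 60 min for their difference. With 30 and 60 min alone prp17-1 against SS330 gave 1, PGM2 (0.347% of all probes were then higher). For prp17 null against prp17-1 (1 call) it was 0 without the time block, 0 with 5, 15 and 30 min alone and 0 with 60 and 120 min alone, and against prp22-1 (1 call) 0 without the time block and 0 with those strains' arrays alone. Leaving out 1 array at a time gave 1 to 3 calls for prp17 null against SS330, 0 to 2 against prp17-1 and 0 to 2 against prp22-1. GLC3 lost its call over all times without prp17 null (adjusted p = 0.0666) or prp17-1 (0.0583). Apart from the alternatives built with fewer genes or arrays, the cause of these moves was not tested. The split of all called probes moved by more than 10 points under quantile normalization: at 60 min 360 higher and 396 lower, against 207 and 143; for prp17-1 against SS330 210 and 313, against 52 and 122; and for prp22-1 against prp17-1 351 and 229, against 288 and 115. As deposited, late minus early in prp17 null had 116 and 162, against 76 and 169. The interactions could not be fitted without either strain's array at 0 min. The labels give no replicate numbers, and the arrays of the strains were matched by time alone, as the time block.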
